A study of Arabidopsis thaliana with 24 samples.

Results

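The comparison set 3 RNA-seq libraries of the untreated brassinosteroid receptor triple mutant against 3 libraries of the untreated cpd mutant, all from Arabidopsis thaliana seedlings of 24 days. These 6 libraries were taken by genotype, age and treatment from the 24 of the series, which also holds both genotypes at 7 days and both with brassinolide (BL). The triple mutant is bri1-701 brl1 brl3, with mutations in BRI1, BRL1 and BRL3, and it was set against cpd, with a mutation in CPD. Neither group received BL, no wild type is among the groups used here, and where each mutation lies in its gene was not used here. The genotype label spells the first allele brl1-701 and the design text bri1-701, and the design text was followed. Both genotypes are brassinosteroid mutants, so each difference is between 2 mutants and not from a wild-type level. The labels do not tell whether replicates were grown apart, and the spread behind the p-values is therefore that of these libraries and may be technical.

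Brassinosteroids are steroid hormones that promote cell elongation, vascular differentiation and reproduction in plants. BRI1, a receptor kinase at the cell surface, binds the hormone, recruits co-receptors of the SERK family and releases the inhibitor BKI1, and a kinase cascade then lets the transcription factors BZR1 and BES1 act. BRL1 and BRL3 are homologues of BRI1 that also bind the hormone, chiefly in vascular tissue. CPD encodes the cytochrome P450 CYP90A1 of brassinosteroid synthesis, and when the hormone is perceived BZR1 and BES1 repress CPD and other genes of the pathway. A cpd plant is thus impaired in making the hormone and the triple mutant in perceiving it.

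Total counts were 17243503, 18372297 and 19480837 in triple mutant replicates 1, 2 and 3, against 19188806, 20563151 and 18442764 in cpd replicates 1, 2 and 3. Along the second principal component at 24 days, with 20.7% of the variance, scores were higher in replicate 3 than in replicates 1 and 2 of the same group in each of the 4 groups. Triple mutant replicate 2 was high in heat-shock genes, among others. HSP101, a chaperone that dissolves protein aggregates, had 632, 1735 and 109 CPM (normalised counts scaled to library size) in triple mutant replicates 1, 2 and 3, against 148, 227 and 142 CPM in cpd replicates 1, 2 and 3. The summed level of the 9 heat-shock genes tested was 2660, 7770 and 702 CPM in the triple mutant, against 847, 1230 and 804 CPM in cpd, so replicate 3 of the triple mutant lay below all cpd libraries. In edgeR's quasi-likelihood test 0 of the 9 passed (8 at an unadjusted p under 0.05, 0 by DESeq2 and 2 by limma-voom), although all 9 had a positive log2 fold change and their median was 1.81. Without triple mutant replicate 3 all 9 passed. The part of this spread in the results below was not tested.

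Of 19731 genes tested, 992 were higher in the triple mutant (5.03% of the genes tested) and 430 were lower (2.18%) at an adjusted p under 0.05, in a fit with the replicate number as a block. Rises were larger than falls: 383 genes were at least 2-fold higher and 22 at least 2-fold lower. Without the block 156 genes were higher and 50 lower, and all 206 were also called with the block. All 3 triple mutant libraries lay above all 3 cpd libraries in 722 of the 992 higher genes, and below them in 391 of the 430 lower genes. Over all genes tested the groups were apart in this way in 10.1% upward and 12.3% downward. The list counts below stand beside these shares and beside the 5.03% called higher and 2.18% called lower. The counts moved by over 1.5 times with most of the single libraries: leaving 1 out gave 155 higher and 22 lower (triple mutant replicate 1), 205 and 26 (triple mutant replicate 2), 1740 and 984 (triple mutant replicate 3), 454 and 192 (cpd replicate 1), 127 and 16 (cpd replicate 2) and 971 and 587 (cpd replicate 3). Of the 383 genes at least 2-fold higher, 332 had their highest level in triple mutant replicate 2, and in 304 triple mutant replicate 3 was still above all cpd libraries. Among the 91 named genes past the test, 24 also passed without the block, and 12 passed under every alternative tried: ACS11, BRI1, BRL1, BRL3, CPD, MYB51, MYB96, NUDT21, NUDT4, PP2-B13, PP2-B14 and RAS1.

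**Figure D1:**
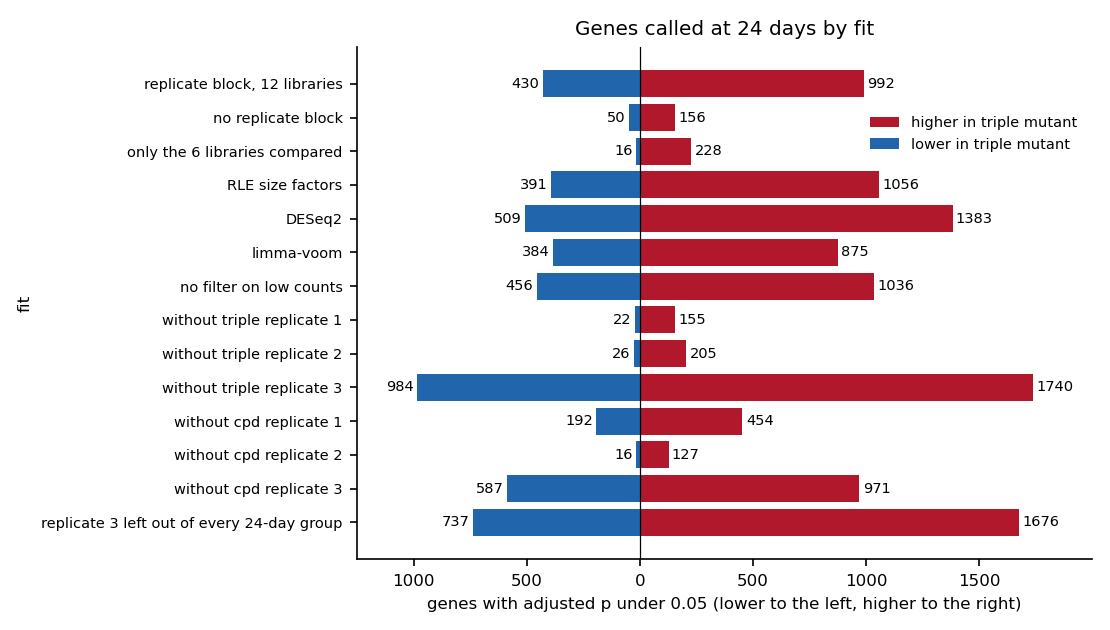
Number of genes with adjusted p under 0.05 at 24 days (horizontal axis, lower in the triple mutant to the left and higher to the right) for each fit (vertical axis). The fit with the replicate block called 992 higher and 430 lower, and leaving out single libraries moved the higher count between 127 and 1740.

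All 4 mutated genes passed the test under every alternative tried. BRI1 (AT4G39400, chromosome 4) had 68.9, 60.7 and 66.2 CPM in the triple mutant, against 278, 257 and 277 CPM in cpd. Every triple mutant library was thus below every cpd library, with a log2 fold change of -2.05 ± 0.07 (SE; adjusted p = 5.5e-07). BRL1 (AT1G55610, chromosome 1) had 5.03, 5.29 and 5.28 CPM in the triple mutant, against 10.8, 11.3 and 14.1 CPM in cpd, a log2 fold change of -1.21 ± 0.14 (adjusted p = 0.0036). BRL3 (AT3G13380, chromosome 3) had 5.45, 3.88 and 3.45 CPM in the triple mutant, against 26.6, 21.2 and 23.6 CPM in cpd, a log2 fold change of -2.49 ± 0.18 (adjusted p = 1.9e-04). Its locus overlaps that of AT3G13390, so reads of the neighbour can be among its counts. All 3 receptor transcripts were still counted in the triple mutant. CPD (AT5G05690, chromosome 5) had 399, 330.3 and 412 CPM in the triple mutant, against 119, 111 and 108 CPM in cpd, with no overlap and a log2 fold change of 1.75 ± 0.09 (adjusted p = 1.2e-05). CPD overlaps AT5G05680, and its level in cpd counts reads over the mutated locus. ABI4, the transcription factor named in the title of the series, had 0 counts in each of the 6 libraries, where 3 counts would be 0.146 to 0.174 CPM, so no difference was detectable at this depth.

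The other receptor components showed smaller differences. Of 9 receptors and co-receptors tested, the list that includes BRI1, BRL1 and BRL3, 4 were lower (these 3 and BKI1) and 1 was higher (BKK1). BKI1, the inhibitor of BRI1, had 31.7, 25.2 and 37.1 CPM in the triple mutant, against 43.7, 42.5 and 44.99 CPM in cpd (log2 fold change -0.49 ± 0.13, adjusted p = 0.043), and the groups did not overlap. BKK1, a SERK-family co-receptor, had 86.2, 98.8 and 62.9 CPM in the triple mutant, against 61.6, 69.9 and 50.8 CPM in cpd. It was higher in each replicate pair (log2 fold change 0.43 ± 0.09, adjusted p = 0.021), although the groups overlapped. Neither BKI1 (adjusted p = 0.14) nor BKK1 (0.18) passed without the block. BAK1, the best known co-receptor, had a log2 fold change of 0.21 ± 0.07 and did not pass (adjusted p = 0.097). Of the 8 kinases and phosphatases of the cascade 0 passed edgeR's test (1 at an unadjusted p under 0.05), and of the 6 members of the BZR1 family 0 passed (3 at an unadjusted p under 0.05). DESeq2 and limma-voom also called 0 in both lists. BES1 had 123, 124 and 104 CPM in the triple mutant, against 97.3, 101 and 101 CPM in cpd (adjusted p = 0.15).

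**Figure D2:**
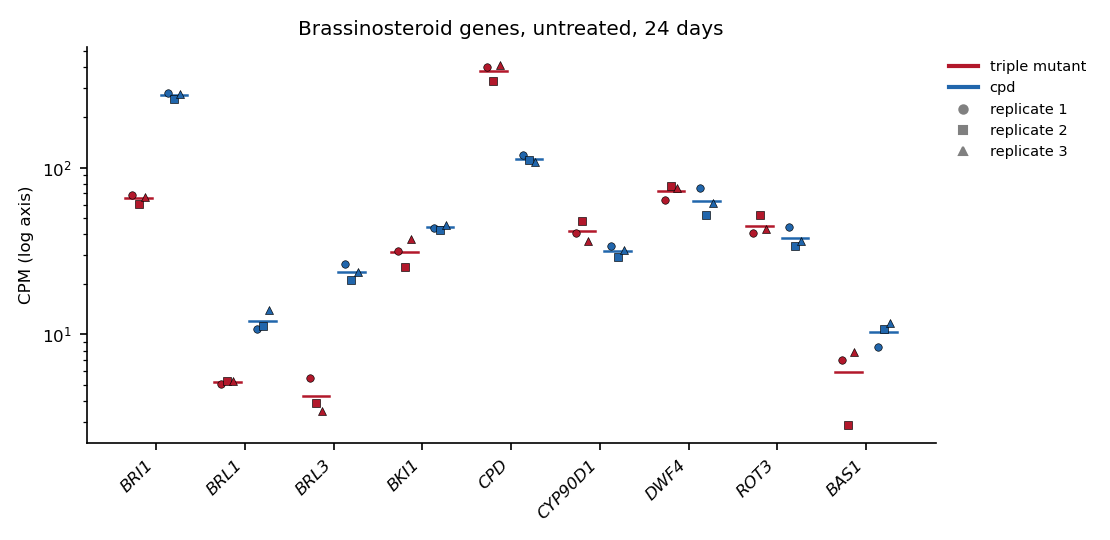
CPM of 9 brassinosteroid genes in each library at 24 days (log axis), triple mutant left of cpd for each gene, with bars at the group means and symbols for the replicate. BRI1, BRL1, BRL3, BKI1 and BAS1 lie lower in all triple mutant libraries and CPD and CYP90D1 higher, while DWF4 and ROT3 overlap.

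Among 7 enzymes of brassinosteroid synthesis, CPD and CYP90D1 were higher and 5 did not pass. CPD is the gene mutated in the cpd group, so CYP90D1 was the only call of the list at a locus not mutated here. CYP90D1, a hydroxylase of the side chain, had 40.7, 47.8 and 36.1 CPM in the triple mutant, against 33.8, 29.0 and 32.0 CPM in cpd. The groups were apart, with a log2 fold change of 0.39 ± 0.10 (adjusted p = 0.04 with the block and 0.1 without it). DWF4, the rate-limiting hydroxylase of the pathway, had 64.1, 77.1 and 75.0 CPM in the triple mutant, against 75.8, 52.1 and 61.5 CPM in cpd, and the groups overlapped (log2 fold change 0.20 ± 0.13, adjusted p = 0.35). BR6OX2, which makes BL, had 222, 177 and 282 CPM in the triple mutant, against 304, 159 and 249 CPM in cpd (log2 fold change -0.05 ± 0.14, adjusted p = 0.87). The median log2 fold change of the 7 was 0.20, beside -0.02 over all genes tested. Of 10 sterol synthesis genes 0 passed by edgeR, DESeq2 or limma-voom (2 at an unadjusted p under 0.05). Among 6 enzymes that inactivate brassinosteroids, UGT73C5 and UGT73C6, near-identical glucosyltransferases whose reads may be shared, passed upward (log2 fold changes 0.80 ± 0.18 and 0.79 ± 0.21), but neither passed without the block (adjusted p = 0.28 and 0.34). BAS1, a cytochrome P450 that breaks down the hormone, had 7.04, 2.88 and 7.82 CPM in the triple mutant, against 8.41, 10.7 and 11.7 CPM in cpd, with no overlap (log2 fold change -0.85 ± 0.25, adjusted p = 0.062).

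The stretch of 250 bases before the annotated start of CPD (chr5:1706949-1707198, minus strand) and of CYP90D1 (chr3:4500921-4501170, minus strand) is shown because these were the synthesis genes that passed. Sequences are from RefSeq (TAIR10.1), 5′ to 3′. Capitals mark matches on either strand to CGTGTG or CGTGCG (the brassinosteroid response element bound by BZR1), CATGTG or CACGTG (E-box and G-box bound by BES1 and BZR1), or CGCGTT (the rapid stress response element).
CPD: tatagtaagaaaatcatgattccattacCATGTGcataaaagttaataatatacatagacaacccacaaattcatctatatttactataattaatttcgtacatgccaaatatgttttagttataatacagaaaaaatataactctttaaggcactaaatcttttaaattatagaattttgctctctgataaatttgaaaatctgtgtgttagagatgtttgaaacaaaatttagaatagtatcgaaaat
CYP90D1: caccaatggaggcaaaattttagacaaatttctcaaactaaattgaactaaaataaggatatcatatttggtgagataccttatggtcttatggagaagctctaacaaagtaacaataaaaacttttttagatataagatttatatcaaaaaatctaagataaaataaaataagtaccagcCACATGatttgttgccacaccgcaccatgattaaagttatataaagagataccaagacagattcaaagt
Each held 1 CATGTG match, which 11.1% of all 27443 promoters of this length hold, and no match to the other 4 motifs. A match of 6 letters is a description of the sequence and not evidence of binding.

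Among growth genes that respond to the hormone, calls in the helix-loop-helix and SAUR lists were all downward. Of 10 growth-related helix-loop-helix factors tested, 3 were lower, beside 2.18% of all genes, and 7 did not pass, with a median log2 fold change of -0.30. BEE3, a brassinosteroid-induced factor, had 25.6, 19.2 and 30.5 CPM in the triple mutant, against 40.8, 47.8 and 46.9 CPM in cpd (log2 fold change -0.87 ± 0.16, adjusted p = 0.015). IBH1, a growth inhibitor that BZR1 represses, had 45.6, 44.2 and 49.8 CPM in the triple mutant, against 61.0, 66.0 and 58.2 CPM in cpd (log2 fold change -0.41 ± 0.08, adjusted p = 0.023, and 0.043 without the block). PAR1, a growth repressor, was lower by a similar amount (log2 fold change -0.53 ± 0.12, adjusted p = 0.03), and so both growth promoters and growth repressors were among the 3. All 3 had groups that did not overlap. The list counted 0 lower without triple mutant replicate 1, triple mutant replicate 2 or cpd replicate 2.

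SAUR genes, small auxin-induced genes of cell expansion, counted 4 lower of 15. SAUR66 had 1.60, 2.00 and 0.914 CPM in the triple mutant, against 3.62, 5.99 and 3.71 CPM in cpd (log2 fold change -1.59 ± 0.22, adjusted p = 0.0058, and 0.079 without the block). SAUR63, SAUR62 and SAUR14 were lower by 1.82, 1.22 and 0.95 on the log2 scale at levels under 4 CPM, and reads of near-identical SAUR copies can be split between them. Without the block 0 of the 4 SAUR calls held, and limma-voom called 2. Of 16 auxin response genes 0 passed by edgeR, against 3 at an unadjusted p under 0.05, 1 by DESeq2 and 0 by limma-voom. The Aux/IAA gene ATAUX2-11, which was not in this list, was lower and is given with the largest falls. Cell wall genes went both ways. XTH22 and XTH23, touch-induced xyloglucan enzymes, were higher: XTH22 had 2270, 2663 and 1686 CPM in the triple mutant, against 1211, 1212 and 1409 CPM in cpd (log2 fold change 0.78 ± 0.15, adjusted p = 0.017, and 0.032 without the block). XTH9 had 91.9, 49.7 and 104 CPM in the triple mutant, against 127, 109 and 153 CPM in cpd (log2 fold change -0.71 ± 0.13, adjusted p = 0.015, and 0.22 without the block). EXLA1, an expansin-like gene, had 79.5, 94.6 and 81.6 CPM in the triple mutant, against 50.4, 52.0 and 54.7 CPM in cpd (log2 fold change 0.71 ± 0.12, adjusted p = 0.01), and it was the only one of 11 expansin genes that passed. Of 7 genes of primary wall cellulose synthesis 0 passed by edgeR, DESeq2 or limma-voom (2 at an unadjusted p under 0.05).

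The rises named here were the 12 largest among called genes with a symbol, at least 5 CPM and groups that did not overlap. Some loci without a symbol in the reference rose more, such as AT1G33760 (log2 fold change 3.00 ± 0.49, mean 21.2 CPM). The 12 were RAS1, PP2-B13, DIC2, DGR1, PP2-B14, NUDT21, ERF11, CAMBP25, JAL23, NUDT4, BCS1 and AGP1. Their log2 fold changes lay between 1.84 and 2.52, and by the rule that chose them their groups did not overlap. RAS1, a regulator of responses to abscisic acid and salt, had 11.5, 21.1 and 8.17 CPM in the triple mutant, against 2.42, 3.54 and 0.992 CPM in cpd (log2 fold change 2.52 ± 0.39, adjusted p = 0.0083). NUDT21, a Nudix hydrolase, had 178, 184 and 129 CPM in the triple mutant, against 40.0, 47.9 and 39.5 CPM in cpd (log2 fold change 1.95 ± 0.27, adjusted p = 0.0057). Its relative NUDT4 had 190, 274 and 128 CPM in the triple mutant, against 49.7, 71.4 and 40.6 CPM in cpd (log2 fold change 1.86 ± 0.26, adjusted p = 0.0059). DIC2, a mitochondrial dicarboxylate carrier, had 210.1, 225 and 133 CPM in the triple mutant, against 36.3, 71.2 and 29.6 CPM in cpd (log2 fold change 2.08 ± 0.33, adjusted p = 0.0091). ERF11, a transcriptional repressor of the ethylene response factor family, had 70.4, 106 and 36.2 CPM in the triple mutant, against 14.1, 24.5 and 15.4 CPM in cpd (log2 fold change 1.94 ± 0.37, adjusted p = 0.017). PP2-B13 and PP2-B14, phloem-protein-like genes that neighbour each other on chromosome 1 and may share reads, rose by 2.11 and 2.03 on the log2 scale. In all 12, replicate 3 was the lowest and replicate 2 the highest triple mutant library.

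**Figure D3:**
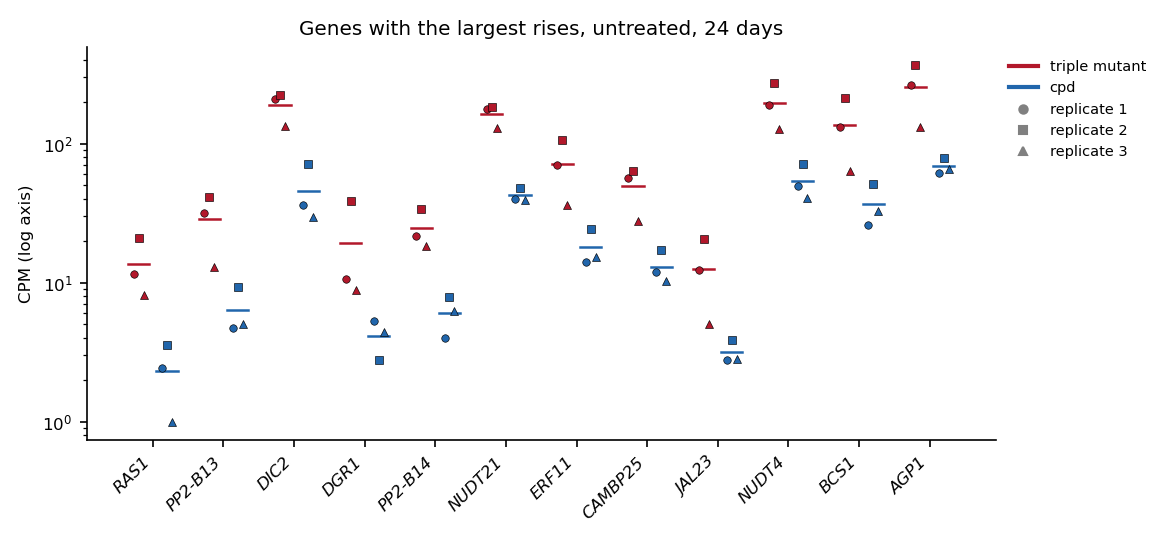
CPM of the 12 genes with the largest rises among genes with a symbol, in each library at 24 days (log axis). The triple mutant stands left of cpd for each gene, with bars at the group means and symbols for the replicate. The groups do not overlap in any of the 12, which the choice of genes required, and replicate 2 is the highest triple mutant library throughout.

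Promoters of 3 of these genes are shown as rises whose promoter held a searched motif: 250 bases before DIC2 (chr4:12686209-12686458, plus strand), PP2-B14 (chr1:21063048-21063297, minus strand) and NUDT21 (chr1:27646744-27646993, minus strand), with capitals as above.
DIC2: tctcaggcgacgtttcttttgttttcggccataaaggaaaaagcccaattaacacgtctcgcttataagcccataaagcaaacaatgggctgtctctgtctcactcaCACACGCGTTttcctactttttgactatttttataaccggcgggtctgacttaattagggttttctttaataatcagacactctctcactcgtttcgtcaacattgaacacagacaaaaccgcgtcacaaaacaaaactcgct
PP2-B14: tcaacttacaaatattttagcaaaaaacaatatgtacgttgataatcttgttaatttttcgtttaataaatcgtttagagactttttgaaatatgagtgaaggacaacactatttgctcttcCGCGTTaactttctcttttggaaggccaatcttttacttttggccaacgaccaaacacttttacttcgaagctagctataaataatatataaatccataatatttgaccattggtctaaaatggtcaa
NUDT21: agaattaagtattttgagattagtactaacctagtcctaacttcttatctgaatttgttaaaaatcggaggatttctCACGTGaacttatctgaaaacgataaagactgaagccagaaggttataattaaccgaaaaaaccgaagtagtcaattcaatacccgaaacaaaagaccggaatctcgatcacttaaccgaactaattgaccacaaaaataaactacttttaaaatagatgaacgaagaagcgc
DIC2 held CGTGTG on the reverse strand overlapping CGCGTT, PP2-B14 held CGCGTT, and NUDT21 held CACGTG. The promoters of RAS1, PP2-B13 and ERF11 were also searched and are not shown. RAS1 held 1 CATGTG match, while PP2-B13 and ERF11 held no searched motif. The motif CGCGTT was added after the values had been seen. It stood in 10.6% of 367 promoters of genes at least 2-fold higher, against 2.86% of 19202 promoters of genes tested and 1.66% of 421 promoters of lower genes. CGTGTG stood in 10.6% of the promoters of genes at least 2-fold higher, against 5.62% of those tested and 3.56% of those of lower genes. For CGTGCG the shares were 2.18%, 1.64% and 1.19% in the same order, for CATGTG 16.6%, 11.1% and 13.3%, and for CACGTG 8.72%, 7.42% and 3.8%. The lower genes in these shares include falls of any size. Among only 21 promoters of genes at least 2-fold lower, the E-box motif stood in 33.3%, above its 16.6% in the rises. The G-box motif stood in 4.76% of these 21 promoters, and each remaining motif in 0%. These shares were not tested, and CGTGTG and CGCGTT can overlap as they do in DIC2.

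The 12 largest falls by the same rule were BRL3, BRI1, BRL1, GASA6, GRP2B, RPL27AB, GRP3S, FED A, BEE3, ATAUX2-11, MES12 and RTFL8. Outside the receptors these falls lay between -0.78 and -1.05 on the log2 scale. Without the limits on symbol and overlap, the largest called fall outside the receptors at 5 CPM or more was -1.24. FED A, the main leaf ferredoxin, had 45.9, 39.3 and 47.3 CPM in the triple mutant, against 90.5, 87.7 and 65.6 CPM in cpd (log2 fold change -0.88 ± 0.12, adjusted p = 0.0058, and 0.0082 without the block). ATAUX2-11, an Aux/IAA repressor of auxin signalling, had 93.8, 78.5 and 112 CPM in the triple mutant, against 157, 182 and 164 CPM in cpd (log2 fold change -0.83 ± 0.14, adjusted p = 0.0099, and 0.025 without the block). GASA6, a gibberellin-induced peptide gene, had 10.6, 5.23 and 12.4 CPM in the triple mutant, against 18.6, 19.1 and 18.3 CPM in cpd (log2 fold change -1.05 ± 0.21, adjusted p = 0.019, and 0.12 without the block). Its family member GASA1 was also lower, with 368, 360.0 and 427 CPM in the triple mutant, against 630, 582 and 542 CPM in cpd (log2 fold change -0.60 ± 0.10, adjusted p = 0.0096). The ribosomal protein gene RPL27AB, which has near-identical copies, had 57.9, 56.9 and 57.7 CPM in the triple mutant, against 131, 141 and 63.3 CPM in cpd, so its difference came mainly from cpd replicates 1 and 2. Of 16 listed genes of cytosolic ribosomal proteins 0 passed by edgeR, DESeq2 or limma-voom (4 at an unadjusted p under 0.05).

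Pattern-triggered defence had the most higher calls of the lists in the fit with the block, whereas by DESeq2 and without triple mutant replicate 3 the jasmonate list had more. Of the 14 defence genes 9 were higher, beside 5.03% of all genes tested, and 5 did not pass. The median log2 fold change of the 14 was 0.58. WRKY33, a transcription factor of defence against fungi, had 739, 874 and 525 CPM in the triple mutant, against 338, 412 and 367 CPM in cpd (log2 fold change 0.92 ± 0.13, adjusted p = 0.0059, and 0.034 without the block). WRKY40 had 477, 706 and 250 CPM in the triple mutant, against 194, 196 and 131 CPM in cpd (log2 fold change 1.39 ± 0.23, adjusted p = 0.01, and 0.055 without the block). WRKY53, NHL10, BIK1, a kinase below immune receptors, and RBOHD, the oxidase of the immune oxidative burst, were higher by 0.84, 0.74, 0.40 and 1.01 on the log2 scale. Of the 9 calls only that of WRKY33 held without the block, 5 had groups that did not overlap, and leaving out 1 library gave 1 to 9 calls, the lowest without triple mutant replicate 1. Salicylate and PR genes did not share this direction: 1 of 13 was higher (CBP60G, 0.72 ± 0.15) and 1 lower (FMO1, -1.23 ± 0.30), with a median of -0.03. PR1, the classic salicylate marker, had 11.2, 2.35 and 9.64 CPM in the triple mutant, against 25.5, 106 and 9.19 CPM in cpd, and did not pass (adjusted p = 0.18).

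All 16 jasmonate genes tested had positive log2 fold changes, with a median of 0.78, and 4 passed (15 at an unadjusted p under 0.05, 11 by DESeq2 and 4 by limma-voom). JAZ1, a repressor of jasmonate signalling that the hormone induces, had 598, 938 and 421 CPM in the triple mutant, against 261, 269 and 276 CPM in cpd (log2 fold change 1.23 ± 0.19, adjusted p = 0.0084, and 0.032 without the block). MYC2, the central transcription factor of the pathway, had 259, 419 and 104 CPM in the triple mutant, against 98.5, 129 and 70.8 CPM in cpd (log2 fold change 1.27 ± 0.27, adjusted p = 0.026), and the groups overlapped. JAZ5 and AOS, an enzyme of jasmonate synthesis, passed with 1.65 ± 0.36 and 0.83 ± 0.21. Neither MYC2 nor JAZ5 nor AOS passed without the block. The list leaned on single libraries: leaving out triple mutant replicate 1 or cpd replicate 2 left 0 of 16 calls, triple mutant replicate 2 or cpd replicate 1 left 1, and leaving out triple mutant replicate 3 gave 14. Relative to the mean of cpd, its median per library was 0.61, 1.58 and 0.06 in triple mutant replicates 1, 2 and 3, against -0.08, 0.14 and -0.02 in cpd replicates 1, 2 and 3 (log2 scale).

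Genes of indole glucosinolate synthesis, the pathway of tryptophan-derived defence compounds, moved by smaller amounts. Of 11 tested, 6 were higher, beside 5.03% of all genes tested, and 5 did not pass. In 8 of the 11 the groups did not overlap, with the triple mutant above, beside 10.1% of all genes tested. MYB51, the regulator of the pathway, had 457, 453 and 383 CPM in the triple mutant, against 258, 280.4 and 264 CPM in cpd (log2 fold change 0.69 ± 0.10, adjusted p = 0.0062, and 0.01 without the block). CYP81F4, which modifies the indole ring, had 130.5, 152 and 132 CPM in the triple mutant, against 49.5, 51.1 and 86.6 CPM in cpd (log2 fold change 1.18 ± 0.18, adjusted p = 0.0087, and 0.055 without the block). CYP83B1, CYP79B3, SOT16 and CYP81F2 were higher by 0.44, 0.54, 0.50 and 0.34 on the log2 scale. Of the 6 calls that of MYB51 alone held without the block. Leaving out 1 library gave 1 to 7 calls, the lowest without triple mutant replicate 1. All 11 aliphatic glucosinolate genes tested were positive, with a median of 0.46, but 1 passed (SOT17, 0.35 ± 0.08).

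**Figure D4:**
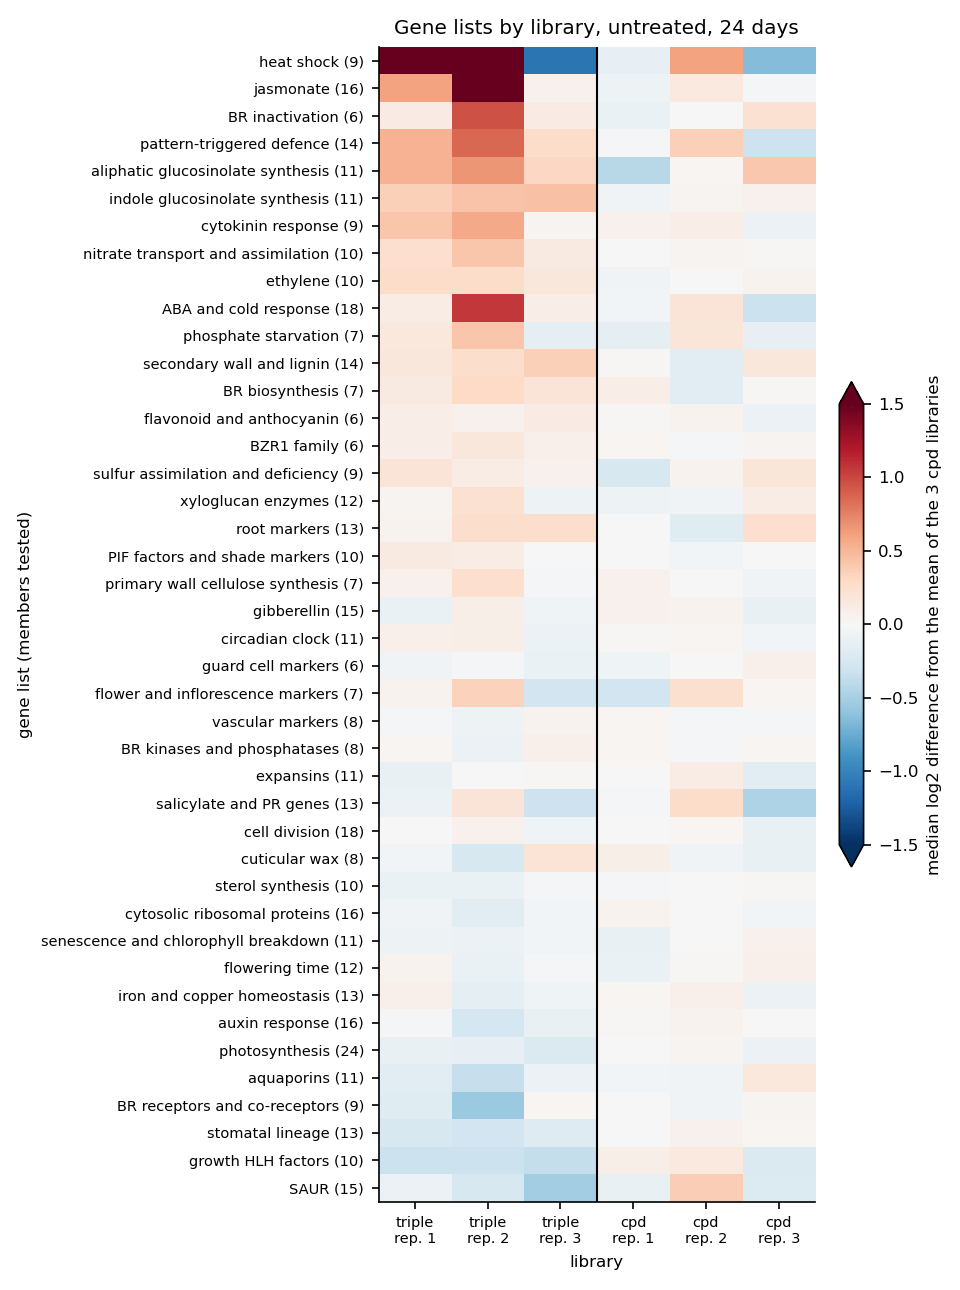
Median log2 difference of each gene list from the mean of the 3 cpd libraries (colour, shown up to 1.5 either way, on log2 of CPM plus 0.5), with lists down the page and triple mutant libraries left of cpd libraries. Heat-shock, jasmonate and abscisic acid genes are highest in triple mutant replicate 2, while the indole glucosinolate list is higher in all 3 triple mutant libraries and the growth helix-loop-helix list lower.

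In several smaller lists some members rose. In the ethylene list 2 of 10 were higher, both ACC synthases, which make the ethylene precursor. ACS11 had 50.02, 53.3 and 42.6 CPM in the triple mutant, against 23.4, 15.2 and 22.6 CPM in cpd (log2 fold change 1.27 ± 0.13, adjusted p = 0.0029, and 0.0039 without the block). ACS6 had 53.5, 87.8 and 43.7 CPM in the triple mutant, against 19.1, 31.2 and 23.4 CPM in cpd (log2 fold change 1.32 ± 0.22, adjusted p = 0.01, and 0.052 without the block). In the cytokinin list 3 of 9 were higher, the response regulators ARR5, ARR6 and ARR7, with log2 fold changes of 1.54 ± 0.39, 1.94 ± 0.52 and 1.51 ± 0.31, overlapping groups and no call without the block. In the abscisic acid and cold list 4 of 18 were higher, with a median of 0.27. CYP707A1 and CYP707A3, which break down abscisic acid, had log2 fold changes of 0.94 ± 0.16 and 2.21 ± 0.42, and the cold regulators CBF1 and CBF2, close copies, had 2.45 ± 0.59 and 2.58 ± 0.63. CBF1 stayed under 3 CPM in all libraries, and none of the 4 passed without the block. MYB96, a regulator of cuticular wax and of abscisic acid responses, had 119, 149 and 117 CPM in the triple mutant, against 84.1, 86.4 and 62.6 CPM in cpd (log2 fold change 0.73 ± 0.09, adjusted p = 0.0045, and 0.029 without the block).

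Of 14 secondary wall and lignin genes 4 were higher and 10 did not pass, with a median of 0.25. The 4 were PAL1 and PAL2, which deaminate phenylalanine, C4H and 4CL1, all enzymes of phenylpropanoid synthesis. C4H had 985, 1168 and 1019 CPM in the triple mutant, against 837, 736 and 597 CPM in cpd (log2 fold change 0.54 ± 0.13, adjusted p = 0.038, and 0.14 without the block). PAL2 had 123, 217 and 195 CPM in the triple mutant, against 71.6, 80.6 and 130.1 CPM in cpd (log2 fold change 0.91 ± 0.15, adjusted p = 0.01, and 0.12 without the block). CESA7, a cellulose synthase of the secondary wall, had a log2 fold change of 0.21 ± 0.11 and did not pass. In the nitrate list 3 of 10 were higher: the nitrate reductases NIA1 (1.03 ± 0.25) and NIA2 (0.59 ± 0.10) and the transporter NRT1.1 (0.40 ± 0.07). NIA2 had 897, 860 and 674 CPM in the triple mutant, against 568, 551 and 486 CPM in cpd, with no overlap (adjusted p = 0.012, and 0.062 without the block). None of the 7 calls of these lists held without the block.

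Of 24 photosynthesis genes 2 were lower, LHCB3 (-0.51 ± 0.12), a light-harvesting protein, and PSAD-2 (-0.41 ± 0.10), a subunit of photosystem I, with a median of -0.15. The summed level of the 24 was 11300, 11800 and 9990 CPM in the triple mutant, against 12500, 12700 and 11500 CPM in cpd. Of 13 stomatal lineage genes 2 were lower, TMM (-0.51 ± 0.10) and EPFL9 (-0.52 ± 0.13), with a median of -0.27 and a summed level of 175, 159 and 183 CPM in the triple mutant, against 199, 206 and 202 CPM in cpd. Neither call of either list held without the block. Root markers (13 of 15 tested) summed to 177, 195 and 231 CPM in the triple mutant, against 158, 149 and 218 CPM in cpd, and 1 of them passed, PHO1. Vascular markers (8 of 9 tested) summed to 462, 398 and 466 CPM in the triple mutant, against 486, 460 and 487 CPM in cpd. Guard cell markers (6 of 6 tested) and flower markers (7 of 8 tested) had 0 calls by edgeR, DESeq2 or limma-voom and 1 each at an unadjusted p under 0.05. Guard cell markers summed to 112 to 132 CPM in the triple mutant and 102 to 132 CPM in cpd, and flower markers summed to at most 10 CPM in the triple mutant and 14.1 CPM in cpd. In RNA of whole seedlings, fewer cells of a type and less RNA per cell cannot be told apart. None of the genes of the flowering time (12), circadian clock (11), phosphate starvation (7) and flavonoid (6) lists passed by edgeR, DESeq2 or limma-voom, against 2, 2, 2 and 0 at an unadjusted p under 0.05.

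The remaining lists held few calls, and except for GASA1 none of those named here passed without the block. In the gibberellin list GASA1 and GASA6 were lower and GID1B, a gibberellin receptor (0.24 ± 0.06), and RGL1, a repressor of gibberellin responses (0.71 ± 0.17), were higher, of 15 tested. Of 10 light and shade genes 2 were higher, HY5 (0.63 ± 0.14), a promoter of light development, and PIF7 (0.61 ± 0.14), a factor of shade growth. Of 11 aquaporins PIP1;2 was lower (-0.42 ± 0.10) and TIP1;1 higher (0.40 ± 0.10). Of 11 genes of senescence and chlorophyll breakdown SAG101 (0.40 ± 0.08) and WRKY6 (0.45 ± 0.10) were higher and NYC1, a chlorophyll b reductase, was lower (-0.52 ± 0.12). One call each came from cell division (KN, -0.51 ± 0.12, of 18), sulfur assimilation (SULTR1;2, 0.49 ± 0.12, of 9), iron and copper (FER1, -0.49 ± 0.11, of 13) and vascular markers (SWEET12, -0.36 ± 0.09, of 8).

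The same genotypes were compared untreated at 7 days in 6 other libraries, where replicates lay much closer together. The biological coefficient of variation, as edgeR names it, was 1.95% there, against 11% in the 24-day libraries. Whether the 7-day replicates were grown apart is not in the labels either, so their spread may be technical. The p-values and SEs at 7 days rest on that spread. At 7 days 2399 genes were higher (13.1% of 18378 tested) and 2766 lower (15.1%). Most rises of 24 days were not rises at 7 days. Of the 992 higher genes 883 were tested at 7 days, where 83 were higher (9.4%) and 419 lower (47.5%). Those 419 were 15.3% of the 2740 genes lower at 7 days that were tested at both ages. Of the 430 lower genes 420 were tested at 7 days, where 94 were higher (22.4%) and 47 lower (11.2%). The 883 and 420 genes had median log2 fold changes of -0.17 and 0.05 at 7 days, whereas at 24 days the medians of all 992 and 430 were 0.83 and -0.46.

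The difference between ages was tested as an interaction in a fit of all 24 libraries, which gives both ages 1 spread. Its biological coefficient of variation was 8.12%, below the 11% of the 24-day libraries and above the 1.95% of the 7-day libraries. The interaction p-values thus rest on a smaller spread than the 24-day libraries had alone and can be too low. Sequencing depth changed with age, as the largest 7-day total (17243503 was the smallest 24-day total) was 12531699 counts. Whether age or another difference between these sets of libraries lies behind an interaction was not tested. Over 19935 genes, 2052 had a genotype difference that was higher at 24 than at 7 days (10.3%) and 1898 one that was lower (9.52%). Of the 992 higher genes 986 were tested in this way, and 745 were past the interaction test upward and 1 downward. Of the 430 lower genes 300 were past it downward and 5 upward. Since the genes had been chosen by their difference at 24 days, the shares describe this choice as well. In the jasmonate list 15 of 16 were lower at 7 days, and 15 were past the interaction test upward. JAZ1 averaged a log2 fold change of 1.23 ± 0.19 at 24 days and -0.63 ± 0.02 at 7 days (interaction adjusted p = 8.1e-06). In the indole glucosinolate list 9 of 11 were lower at 7 days and 9 were past the interaction test. PAL1 had 0.86 ± 0.21 at 24 days and -1.12 ± 0.02 at 7 days (interaction adjusted p = 1.5e-05), and 8 of the 12 secondary wall and lignin genes tested at 7 days were lower there. The receptors and CPD kept their direction: BRI1 had -1.81 ± 0.04 and CPD 2.67 ± 0.03 at 7 days.

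**Figure D5:**
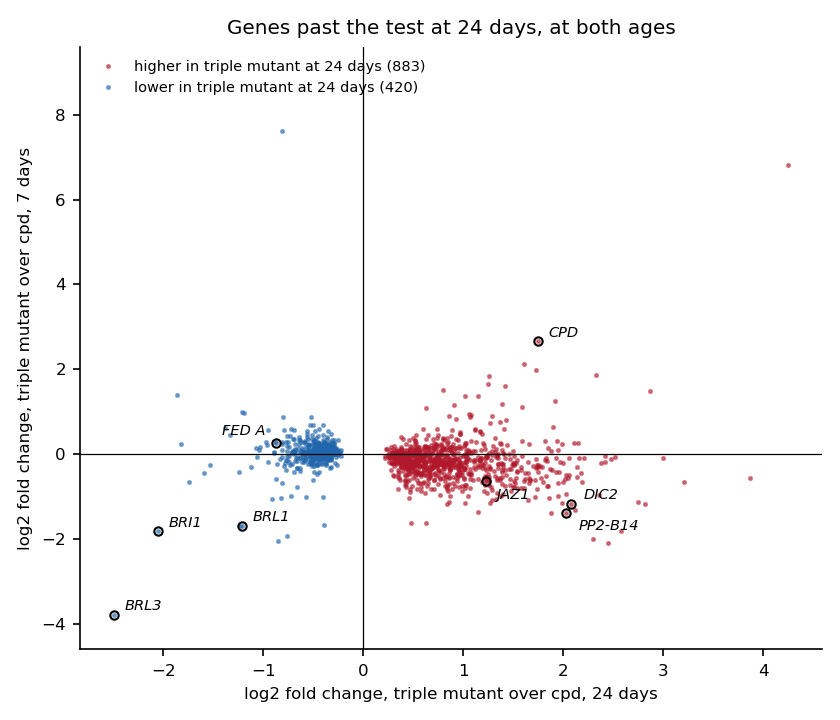
Log2 fold change of the triple mutant over cpd at 24 days (horizontal axis) and at 7 days (vertical axis) for the genes past the test at 24 days and also tested at 7 days, 883 higher (red) and 420 lower (blue). Most red points lie below the horizontal line at 0, and BRI1, BRL1, BRL3 and CPD keep their direction at both ages.

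In the BL-treated libraries of the same age the fold changes mostly kept their sign. Of the 992 higher genes 882 had a positive log2 fold change in the BL-treated pair, with a median of 0.46, and of the 430 lower genes 293 had a negative one, with a median of -0.14. These libraries are other libraries of the same replicate numbers and of the same fit, so the 2 contrasts are not independent in their estimated spread. CPD had a log2 fold change of 4.11 in the BL-treated pair and 1.75 in the untreated pair. DWF4 had 5.42 in the BL-treated pair and 0.20 in the untreated pair, and BR6OX2 7.18 and -0.05 in the same order. Whether the untreated and the BL-treated differences are unequal was not tested here. The 15 SAUR genes had a median of -3.20 with BL and -0.31 without.

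With BL at 24 days, in 6 further libraries of the same fit and with the same replicate numbers as a block, the direction was kept in most members. Of the 992 higher genes 882 had a positive log2 fold change of BL-treated triple mutant over BL-treated cpd, with a median of 0.46, and of the 430 lower genes 293 had a negative one, with a median of -0.14. Over all 19731 genes 9777 were positive and the median was -0.0026, and none of these values was tested. Among the rises, NUDT21 averaged 170.5 ± 36.8 CPM in BL-treated triple mutant and 50.1 ± 20.8 CPM in BL-treated cpd, and MYB51 averaged 388 ± 18 CPM in BL-treated triple mutant and 251.5 ± 28.7 CPM in BL-treated cpd (SD, n = 3 each). JAZ1 lay closer together, at 493 ± 79.0 CPM in BL-treated triple mutant and 319.65 ± 50.5 CPM in BL-treated cpd.

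Whether the genotype difference of single genes is unequal with and without BL was not tested. CPD averaged 381 ± 28.7 CPM in BL-treated triple mutant and 22.1 ± 3.2 CPM in BL-treated cpd, a log2 fold change of 4.11 ± 0.10 (SE). DWF4, which did not pass without BL, averaged 64.7 ± 4.6 CPM in BL-treated triple mutant and 1.5 ± 0.25 CPM in BL-treated cpd. ACS11 averaged 50.3 ± 3.4 CPM in BL-treated triple mutant and 0.104 ± 0.0062 CPM in BL-treated cpd, where each library had fewer than 3 counts. IBH1 and GASA1, both lower in the untreated triple mutant, had the opposite sign with BL: IBH1 averaged 50.7 ± 4.2 CPM in BL-treated triple mutant and 20.7 ± 0.95 CPM in BL-treated cpd, and GASA1 averaged 463 ± 26.0 CPM in BL-treated triple mutant and 309.5 ± 37.4 CPM in BL-treated cpd.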

How the data were processed

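RNA of Arabidopsis thaliana seedlings was sequenced in 24 libraries, and 6 of them form the comparison. The authors deposited read counts per gene locus (32678 loci, 1 column per library, 0 library columns left out and 0 lines without a gene). Per the labels' protocols, Trizol was used for extraction and an Illumina TruSeq kit for the libraries. The submitters' processing notes name Trimmomatic 0.36, HISAT2 2.1.0 and HTSeq 0.9.1 as tools and TAIR10 as the build. The sources used here do not state their roles, the gene annotation or whether counting used strand. Reads of overlapping genes and of near-identical copies can therefore be split or shared.

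Counts were tested with edgeR 4.0.16 (quasi-likelihood F test, TMM factors, R 4.3.3) on the 12 libraries of 24 days, with group and replicate number as terms. The filter was filterByExpr (minimum count 10), which left 19731 genes, and p-values were adjusted by Benjamini-Hochberg over all of them, with a threshold of 0.05. The block was given with the comparison. Deviations from the group means of same-numbered untreated triple mutant and cpd libraries had r = 0.13, 0.24 and 0.37 for replicates 1, 2 and 3. In the other pairs of 24-day groups r lay between 0.083 and 0.62. Libraries of different number were not compared in this way. Log2 fold changes are triple mutant minus cpd, and each SE is the fold change over the square root of F. Floors of 3 counts cover counting error only, since PCR copies are not independent molecules. Replicates of a group differed by 6.15 to 56.5 times the counting variance, so no pair agreed within sampling noise. Alternatives used DESeq2 1.42.0, limma 3.58.1 (voom), other scaling and filters, and left-out libraries. Simulated data served as a further check, whose outcome is not given here and is not counted as evidence for the calls.

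Named genes were the mutated genes and ABI4, the 12 largest rises and 12 largest falls with a symbol, at least 5 CPM on average and groups that did not overlap, and for each list its 4 members, or fewer, of lowest adjusted p. Further members of a list and the loci of the closing section were named after their values were seen. The 42 gene lists (513 members after 13 were left out because the reference gives their symbol to another locus, 470 tested) and the groups compared were chosen with earlier results of these data known. Symbols, biotypes and promoters came from RefSeq (TAIR10.1), where 19649 of the genes tested were found. The dose of BL was not used here.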

Additional observations from a re-analysis of the deposited data

Results flagged for a closer look

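Among the mutated genes and the largest rises and falls, the genotype difference was unequal at the 2 ages for 22, by the interaction test over all 24 libraries (edgeR, Benjamini-Hochberg adjusted p under 0.05). Of all 185 named genes in that test 116 passed it, 73 upward and 43 downward. Values are the log2 fold change of the triple mutant over cpd at 24 days minus that at 7 days. All 11 flagged genes among the largest rises had a positive value: PP2-B14 3.40, JAL23 3.27, DIC2 3.24, PP2-B13 2.93, ERF11 2.92, NUDT4 2.87, NUDT21 2.62, BCS1 2.59, RAS1 2.57, CAMBP25 2.25 and AGP1 1.98. PP2-B13 was too low to be tested at 7 days alone. Among the largest falls the value was negative for MES12 (-1.36), GRP2B (-1.21), GASA6 (-1.16), FED A (-1.14), GRP3S (-0.95), RPL27AB (-0.94), ATAUX2-11 (-0.73) and BEE3 (-0.63). BRL3 fell less at 24 than at 7 days (1.29), BRI1 fell slightly more at 24 days (-0.26), and CPD rose less at 24 days (-0.93). The genes were named for their difference at 24 days, so a value in that direction is in part set by the choice. The test also used a spread below that of the 24-day libraries alone. Whether age itself or another difference between the libraries of each age lies behind these values was not tested.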

How the results depend on the processing

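With no replicate block 156 genes were higher and 50 lower at 24 days, against 992 and 430 with it. A fit of only the 6 libraries compared gave 228 and 16, and leaving replicate 3 out of every 24-day group gave 1676 and 737. Leaving out 1 library gave 127 to 1740 higher genes and 16 to 984 lower genes. RLE size factors, DESeq2, limma-voom and no filter on low counts gave 875 to 1383 higher and 384 to 509 lower, and the median log2 fold change of all genes lay between -0.02 and -0.0027. At 7 days, where alternatives were chosen after seeing the data, DESeq2 gave 1219 higher and 1639 lower genes, against 2399 and 2766, and the other settings stayed within 1.5 times. For the interaction, no replicate block gave 1244 lower genes, against 1898, and leaving out 1 library gave 1461 to 2585 higher and 1150 to 2378 lower. None of the 91 named genes past the test changed direction under any alternative. Such a change was hardly possible, since the alternatives reuse the same libraries. Of all called genes, 988 of the 992 higher and all 430 lower had the same direction in all 3 replicate pairs. For the other named genes a change of sign was counted only where the alternative called the gene, and 0 were counted. The cause of these changes was not tested.

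The spread between 24-day libraries limits the comparison, and the part of depth was not tested. Genes under about 3 CPM, such as CBF1 and SAUR63, rest on few counts, and the counts of calls move with single libraries.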

Other observations

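Several of the steadiest rises were loci that the reference annotates as pseudogenes, which carry no symbol and so fell outside the rule for named genes. They were chosen after their values were seen. Of 132 pseudogenes tested, 10 were at least 2-fold higher in the triple mutant (7.58%), against 367 of 19203 protein-coding genes (1.91%), a difference that was not tested. AT4G08115 on chromosome 4 had 19.2, 18.3 and 16.9 CPM in the triple mutant, against 2.21, 2.31 and 2.92 CPM in cpd (log2 fold change 2.87 ± 0.14, adjusted p = 6.5e-06, and 3.4e-06 without the block, edgeR). It was also higher at 7 days, with 5.55 ± 0.50 CPM in the triple mutant and 1.99 ± 0.12 CPM in cpd (SD, n = 3 each). Nearby pseudogenes AT4G08112 and AT4G08109 had log2 fold changes of 3.19 ± 0.32 and 3.38 ± 0.35 at levels under 4 CPM, while the close neighbour AT4G08110 had 69.4, 69.9 and 70.5 CPM in the triple mutant, against 70.9, 67.5 and 65.9 CPM in cpd.

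AT4G16870, a further pseudogene on chromosome 4, had 204, 214 and 174 CPM in the triple mutant, against 34.4, 47.2 and 36.1 CPM in cpd (log2 fold change 2.33 ± 0.15, adjusted p = 6.0e-05, and 5.4e-05 without the block, edgeR). At 7 days it averaged 85.9 ± 4.6 CPM in the triple mutant and 23.5 ± 2.0 CPM in cpd (SD, n = 3 each). AT3G28153, a pseudogene on chromosome 3, differed between the ages: it averaged 1.54 ± 0.21 CPM in the triple mutant and 2.72 ± 0.43 CPM in cpd at 24 days (log2 fold change -0.82 ± 0.18, adjusted p = 0.026, and 0.11 without the block), whereas at 7 days it averaged 308 ± 5.1 CPM in the triple mutant and 1.54 ± 0.22 CPM in cpd (SD, n = 3 each).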
